A study of Homo sapiens with 12 samples.

Results

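The expression of 54 genes that encode nucleolar and ribosome assembly proteins was followed in 12 RNA sequencing libraries of MM1S and MM1R, a pair of multiple myeloma cell lines. The genes were chosen by symbol from a list of factors for rRNA transcription, rRNA processing and ribosome assembly, with earlier results of these data known. All 54 were found among the 43735 genes of the count table. Of these, 51 passed the filter on low counts, out of 14085 genes tested. MM1S is sensitive and MM1R resistant to glucocorticoids, and both are malignant plasma cell lines grown from the same patient. Cultures of each line were left untreated (UT) or exposed to 1 µM withaferin A (WA), a plant-derived steroidal lactone that reacts with protein cysteines, for 3 h. Each of the 4 groups held 3 independent cultures, of passages 16, 22 and 23 for MM1S and of passages 4, 6 and 7 for MM1R. Because the lines shared no passage number, line and passage cannot be told apart. The labels name no vehicle for the untreated cultures. They give the 1 µM dose and the 3 h for all samples, and these were read as applying to the WA cultures only.

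Ribosomes are built mainly in the nucleolus, where RNA polymerase I makes a long precursor rRNA that is modified by small nucleolar RNPs (snoRNPs), cleaved and folded onto ribosomal proteins. The small-subunit (SSU) processome assembles first on the precursor, and separate sets of factors then mature the small and the large subunit before export to the cytoplasm. Plasma cells and myeloma cells secrete or retain large amounts of immunoglobulin and depend on a high rate of protein synthesis, and MYC is a known activator of these genes.

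The libraries held 17625110 to 19368343 gene-assigned reads each. All 10 plasma cell markers examined passed the filter in these libraries, and their summed level was 10300 to 19200 CPM (read counts scaled to library size) per culture. Of 15 markers of T, myeloid, erythroid, epithelial, endothelial and stromal cells, 6 never exceeded 3 reads in any culture, and the summed level of the 15 lay between 27.9 and 48.9 CPM. Among the latter, 1 gene (COL1A1) was higher with WA in both lines. As in any bulk sample, fewer cells of a type and less RNA per cell cannot be told apart.

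The 54 genes took 0.781% to 0.890% of the reads in untreated MM1S and 0.489% to 0.669% with WA. In MM1R they took 0.705% to 0.884% in untreated cultures and 0.516% to 0.534% with WA. Within each line, every WA culture lay below every untreated culture. In CPM, scaled with the TMM factors of edgeR, the sum over the 51 tested genes was 7534, 7572 and 8566 in untreated MM1S of passages 16, 22 and 23 and 4804, 6730 and 6270 with WA. It was 6794, 7940 and 9178 in untreated MM1R of passages 4, 6 and 7 and 5008, 5634 and 5531 with WA.

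Levels between genes were compared as mean CPM per kilobase of the canonical GENCODE transcript, which was found for 50 of the 51 genes. NPM1, the main protein of the granular nucleolus and a ribosome assembly chaperone, was the highest in every group, at 896 CPM per kilobase in untreated MM1S and 1110 in untreated MM1R. The median gene stood at 36.1 in untreated MM1S and 37.3 in untreated MM1R, and at 27.1 and 23.0 with WA. The order below NPM1 shifted with line and treatment. NCL (nucleolin, a nucleolar RNA-binding protein) was second in MM1S at 206 untreated, whereas NHP2, an H/ACA snoRNP core protein, was second in untreated MM1R at 189. PPAN, a large-subunit factor, was lowest in all groups, at 2.33 to 3.10 CPM per kilobase. In the annotation other genes overlap 61.8% of the PPAN exons and 48.2% of the NHP2 exons. These levels therefore depend on how reads in such overlaps were counted. NPM1 has near-identical processed pseudogenes, so that its count depends on how such reads were placed.

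The first comparison asked which of the genes responded to WA in the resistant line. In MM1R, 42 of the 51 tested genes were lower with WA and 0 were higher at an adjusted p under 0.05 (edgeR quasi-likelihood test, Benjamini-Hochberg adjustment over all tested genes). Over all 14085 tested genes, 6.46% were lower and 7.55% were higher. The log2 fold changes of the 51 genes had a median of -0.70 and ran from -1.48 for RRS1 to 0.09 for NOP58, against a median of 0.01 for all tested genes, and 50 of 51 were negative. The CPM values of WA and untreated cultures did not overlap for 47 of the 51 genes, all lower with WA, where 16% of all tested genes showed the same separation. The 4 genes that overlapped were NPM1, NOP58, NHP2 and GAR1. With the passage number as replicate block, 46 of the genes were lower, beside 14.4% of all tested genes.

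Each of the 42 calls rests on 3 cultures a group. Leaving out untreated passage 6 left 24 calls (3.01% of all tested genes lower) and untreated passage 7 left 23 (3.89%). Leaving out WA passage 4 left 25 (3.75%) and WA passage 7 left 23 (2.82%). Without both passage 7 cultures of MM1R 9 genes were called, beside 1.54% of all tested genes. The following 7 genes were called lower under all 19 alternatives examined: UTP4, BYSL, NOP2, NOP16, PES1, RRP1B and RRS1.

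In MM1S, 19 of the 51 genes were lower with WA and 0 were higher at an adjusted p under 0.05 by edgeR, beside 4.23% lower and 6.25% higher of all tested genes. The median log2 fold change was -0.51, with a range from -1.35 for RRS1 to 0.11 for NOP58 and a median of 0.01 over all tested genes. With passage as replicate block 41 were lower, beside 11.7% of all tested genes, and DESeq2 called 29 lower, beside 6.71%. WA and untreated cultures did not overlap for 32 of the 51 genes, all lower with WA, compared with 13.9% of all tested genes. Without untreated passage 22 the count was 8 (1.72% of all tested genes lower) and without untreated passage 23 it was 6 (1.85%). Without WA passage 16 it was 7 (2.31%) and without WA passage 22 it was 29 (4.37%). Both passage 23 cultures left out together gave 4 calls, beside 0.682% of all tested genes. NOP2, NOP16, RRP1B and RRS1 were called in MM1S under all 19 alternatives. All 19 genes called in MM1S were among the 42 called in MM1R, which is 100% of the MM1S list and 45.2% of the MM1R list.

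**Figure D1:**
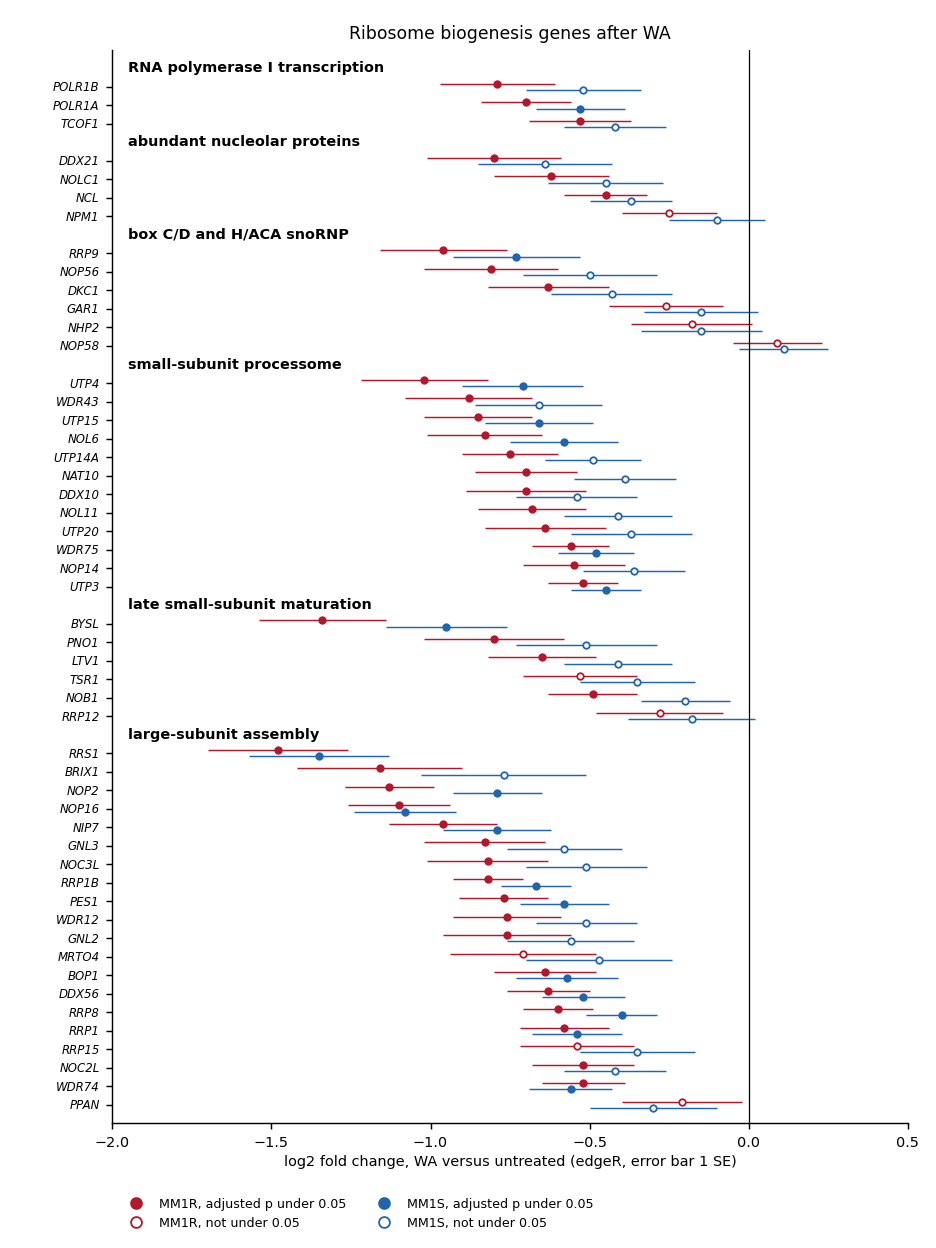
Log2 fold change with WA (horizontal axis, edgeR, bars are 1 SE) of the 51 tested genes in MM1R (red) and MM1S (blue), grouped by role, with filled points for an adjusted p under 0.05. In both lines 50 of 51 points lie left of 0, NOP58 lies right of it in both, and RRS1 lies farthest left at -1.48 in MM1R and -1.35 in MM1S.

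The machinery of RNA polymerase I was represented by 4 genes, of which 3 were tested. All 3 were lower in MM1R and 1 was lower in MM1S, or all 3 in MM1S with passage as replicate block. POLR1A and POLR1B, which encode the largest polymerase subunits, fell by 0.70 and 0.79 on the log2 scale in MM1R (SE 0.14 and 0.18, edgeR adjusted p of 0.0048 and 0.012). In MM1S the changes were -0.53 for POLR1A (adjusted p = 0.027) and -0.52 for POLR1B (adjusted p = 0.086). TCOF1, the nucleolar scaffold treacle and the most abundant transcript of this group by mean CPM over all cultures, was measured at 156, 178 and 212 CPM in untreated MM1R of passages 4, 6 and 7 and at 95.3, 130 and 153 CPM with WA. In MM1S it stood at 177, 164 and 174 CPM untreated and at 125, 118 and 143 CPM with WA for passages 16, 22 and 23. The untreated and WA cultures did not overlap in either line, and TCOF1 passed the test in MM1R (log2 fold change -0.53, SE 0.16, edgeR adjusted p = 0.040) but not in MM1S (-0.42, SE 0.16, adjusted p = 0.11). In MM1S it passed in 4 of the 19 alternatives, among them the replicate block (edgeR adjusted p = 0.0036). RRN3, the initiation factor that brings the polymerase to the rDNA promoter, had 1 to 13 reads per culture and was not tested. This count, like those of FBL and NOC4L given below, is no measure of expression, since genes that every cell uses, such as the ribosomal protein genes RPS9 and RPS25, also had 0 or 1 read in these libraries.

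Of the abundant nucleolar proteins, NCL, NOLC1 and DDX21 were lower in MM1R, and none of the 4 passed the same test in MM1S. With the block the same 3 genes were also lower in MM1S, at adjusted p of 0.012, 0.0059 and 0.0037. DDX21, an RNA helicase of rRNA transcription and processing, had the largest change of these at -0.80 (SE 0.21, edgeR adjusted p = 0.022) in MM1R and -0.64 (SE 0.21, adjusted p = 0.070) in MM1S. NOLC1, a chaperone of snoRNPs, had log2 fold changes of -0.62 and -0.45. NPM1 had 1157, 1457 and 1794 CPM in untreated MM1R and 1071, 1285 and 1339 CPM with WA. The MM1S cultures had 1286, 1068 and 1196 CPM untreated and 1048, 1163 and 1102 CPM with WA. The groups overlapped in both lines, and the log2 fold changes were -0.25 in MM1R (SE 0.15, edgeR adjusted p = 0.30) and -0.10 in MM1S (SE 0.15, adjusted p = 0.75).

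Of the 6 tested snoRNP genes, 3 passed the test in MM1R. RRP9, the U3-specific protein needed for the early cleavages, NOP56, a scaffold of box C/D snoRNPs, and DKC1, the pseudouridine synthase of H/ACA snoRNPs, were lower in MM1R, with log2 fold changes of -0.96, -0.81 and -0.63. The H/ACA core genes NHP2 (-0.18, edgeR adjusted p = 0.60) and GAR1 (-0.26, adjusted p = 0.37) and the box C/D scaffold gene NOP58 (0.09, adjusted p = 0.74) did not pass in MM1R. In MM1S RRP9 was called (-0.73, adjusted p = 0.032), and with the replicate block NOP56 and DKC1 were called as well (adjusted p of 0.0073 and 0.0081). NOP56, the highest of the group by mean CPM over all 12 cultures, though below NOP58 in MM1R with WA, was measured at 246, 290 and 380 CPM in untreated MM1R and at 176, 169 and 178 CPM with WA. Its MM1S values were 276, 338 and 380 CPM untreated and 155, 287 and 260 CPM with WA. The MM1R groups lay apart and the MM1S groups overlapped, with the WA culture of passage 22 above the untreated culture of passage 16. NOP58, its partner in the same particle, had 178, 215 and 245 CPM in untreated MM1R and 215, 223 and 241 CPM with WA, so that the WA values lay within the untreated range. FBL, the rRNA 2'-O-methyltransferase of the particle, had 1 to 7 reads per culture and was not tested. In the annotation 48.2% of the NHP2 exons overlap RMND5B.

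All 12 tested genes of the SSU processome were lower in MM1R, where their log2 fold changes had a median of -0.70, and 5 were lower in MM1S (UTP3, UTP4, UTP15, WDR75 and NOL6), with a median of -0.49. The replicate block brought the MM1S count to 11. UTP4, UTP15, WDR43, WDR75 and NOL11 belong to the subcomplex that joins the nascent precursor rRNA first, and their log2 fold changes in MM1R were -1.02, -0.85, -0.88, -0.56 and -0.68. UTP4 had 38.7, 41.0 and 54.2 CPM in untreated MM1R and 20.0, 21.9 and 24.2 CPM with WA, with no overlap. NAT10, an RNA acetyltransferase that modifies 18S rRNA and the most abundant transcript of the group by CPM, had 112, 129 and 150 CPM in untreated MM1R and 86.1, 84.5 and 69.7 CPM with WA. It had 125, 147 and 163 CPM in untreated MM1S and 88.7, 128 and 114 CPM with WA. NAT10 was lower in MM1R without overlap (log2 fold change -0.70, SE 0.16, edgeR adjusted p = 0.0095), and in MM1S the WA culture of passage 22 overlapped the untreated range (-0.39, SE 0.16, adjusted p = 0.13 without and 0.029 with the replicate block). NOC4L had 0 to 4 reads in each culture and was not tested.

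Among 6 factors of late small-subunit maturation, 4 were lower in MM1R and 1 in MM1S, or 6 and 3 with the replicate block. BYSL (bystin), which acts in the maturation of pre-40S particles, had 58.5, 65.3 and 82.9 CPM in untreated MM1R and 29.4, 29.8 and 22.4 CPM with WA. In MM1S it had 52.0, 61.9 and 64.5 CPM untreated and 22.3, 39.5 and 30.4 CPM with WA. Groups lay apart in both lines, and BYSL fell by 1.34 in MM1R (SE 0.20, edgeR adjusted p = 0.00068) and by 0.95 in MM1S (SE 0.19, adjusted p = 0.0071) on the log2 scale. Without 1 of the libraries or under another setting its adjusted p in MM1S rose to 0.094 at most, and it was then not called in 1 of the 19 alternatives. PNO1 and NOB1, which act together in the last cleavage of 18S rRNA, had log2 fold changes of -0.80 and -0.49 in MM1R and -0.51 and -0.20 in MM1S, and only the MM1R values passed the test, with or without the block. RRP12, which takes part in subunit export and was the highest of the group by mean CPM over all 12 cultures, though below TSR1 in both untreated groups, had 87.6, 99.9 and 116 CPM in untreated MM1R and 79.9, 83.7 and 86.5 CPM with WA. The MM1S cultures had 78.1, 115 and 120 CPM untreated and 63.6, 101 and 113 CPM with WA. The MM1R groups stood apart by a small margin and the MM1S groups overlapped, and RRP12 passed the test in neither line (-0.28, edgeR adjusted p = 0.40, and -0.18, adjusted p = 0.65). TSR1, a GTPase-like factor of pre-40S particles, was the other one not called in MM1R (-0.53, adjusted p = 0.063). With the replicate block both were called in MM1R, RRP12 at an adjusted p of 0.033 and TSR1 at 0.0052.

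The large-subunit factors were the largest group, with 20 genes, and 17 were lower in MM1R (median -0.76 on the log2 scale) and 11 in MM1S (median -0.56), or 19 and 18 with the replicate block. The 5 genes with the smallest p were the same in both lines, namely NOP2, RRP1B, BYSL, NOP16 and RRS1, and 4 of them act on the large subunit. NOP2, a 28S rRNA cytosine methyltransferase (chromosome 12, 6666029 to 6677857, 16 exons in GRCh37), had 154, 159 and 195 CPM in untreated MM1R and 81.2, 77.1 and 72.7 CPM with WA. Its MM1S values were 153, 149 and 161 CPM untreated and 68.5, 105 and 94.3 CPM with WA. NOP2 fell by 1.13 in MM1R (SE 0.14, edgeR adjusted p = 0.00026) and by 0.79 in MM1S (SE 0.14, adjusted p = 0.0034) on the log2 scale, with no overlap of groups in either line. The annotation places an overlapping unnamed gene over 96.2% of the NOP2 exons.

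RRS1, which helps to bring the 5S rRNA particle into the large subunit, had 58.7, 71.1 and 74.1 CPM in untreated MM1R and 28.9, 28.9 and 15.3 CPM with WA. In MM1S it had 59.9, 56.7 and 68.0 CPM untreated and 19.8, 31.3 and 21.2 CPM with WA. All WA cultures were below all untreated ones, and the log2 fold changes of -1.48 in MM1R (SE 0.22, edgeR adjusted p = 0.00085) and -1.35 in MM1S (SE 0.22, adjusted p = 0.0018) were the largest of the 51 genes. NOP16, a nucleolar large-subunit protein (chromosome 5, 175810949 to 175815928), had 56.2, 68.2 and 88.2 CPM in untreated MM1R and 33.3, 35.3 and 30.2 CPM with WA. Untreated MM1S had 59.8, 48.6 and 47.5 CPM and MM1S with WA 21.7, 28.1 and 23.7 CPM. The change was nearly equal in the lines, at -1.10 in MM1R (SE 0.16, edgeR adjusted p = 0.00070) and -1.08 in MM1S (SE 0.16, adjusted p = 0.00094). RRP1B, a nucleolar protein of early large-subunit processing, had 280, 302 and 292 CPM in untreated MM1R and 161, 185 and 148 CPM with WA. In MM1S it had 244, 232 and 248 CPM untreated and 133, 165 and 156 CPM with WA. It was separated in both lines, with log2 fold changes of -0.82 in MM1R (SE 0.11, edgeR adjusted p = 0.00041) and -0.67 in MM1S (SE 0.11, adjusted p = 0.0019).

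GNL3 (nucleostemin, a nucleolar GTPase) was the most abundant large-subunit transcript by CPM. It had 267, 319 and 339 CPM in untreated MM1R and 170, 190 and 162 CPM with WA, and 280, 297 and 359 CPM in untreated MM1S and 141, 262 and 221 CPM with WA. The groups did not overlap in either line, and the fall of 0.83 on the log2 scale passed the test in MM1R (SE 0.19, edgeR adjusted p = 0.0098). The change of -0.58 in MM1S did not pass (SE 0.18, edgeR adjusted p = 0.060). It passed in 4 of the 19 alternatives, among them the replicate block (adjusted p = 0.0045). PES1, BOP1 and WDR12 form a trimeric complex needed for large-subunit rRNA processing, and their log2 fold changes were -0.77, -0.64 and -0.76 in MM1R and -0.58, -0.57 and -0.51 in MM1S. All but WDR12 in MM1S passed the test, and WDR12 passed with the block (adjusted p = 0.0039). BRIX1 and NIP7, which join early pre-60S particles, had log2 fold changes of -1.16 and -0.96 in MM1R. The 3 large-subunit genes not called in MM1R were MRTO4 (-0.71, edgeR adjusted p = 0.058), RRP15 (-0.54, adjusted p = 0.065) and PPAN (-0.21, adjusted p = 0.55), and MRTO4 and RRP15 were called with the replicate block. In the annotation 61.8% of the PPAN exons overlap P2RY11 and its readthrough with PPAN.

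**Figure D2:**
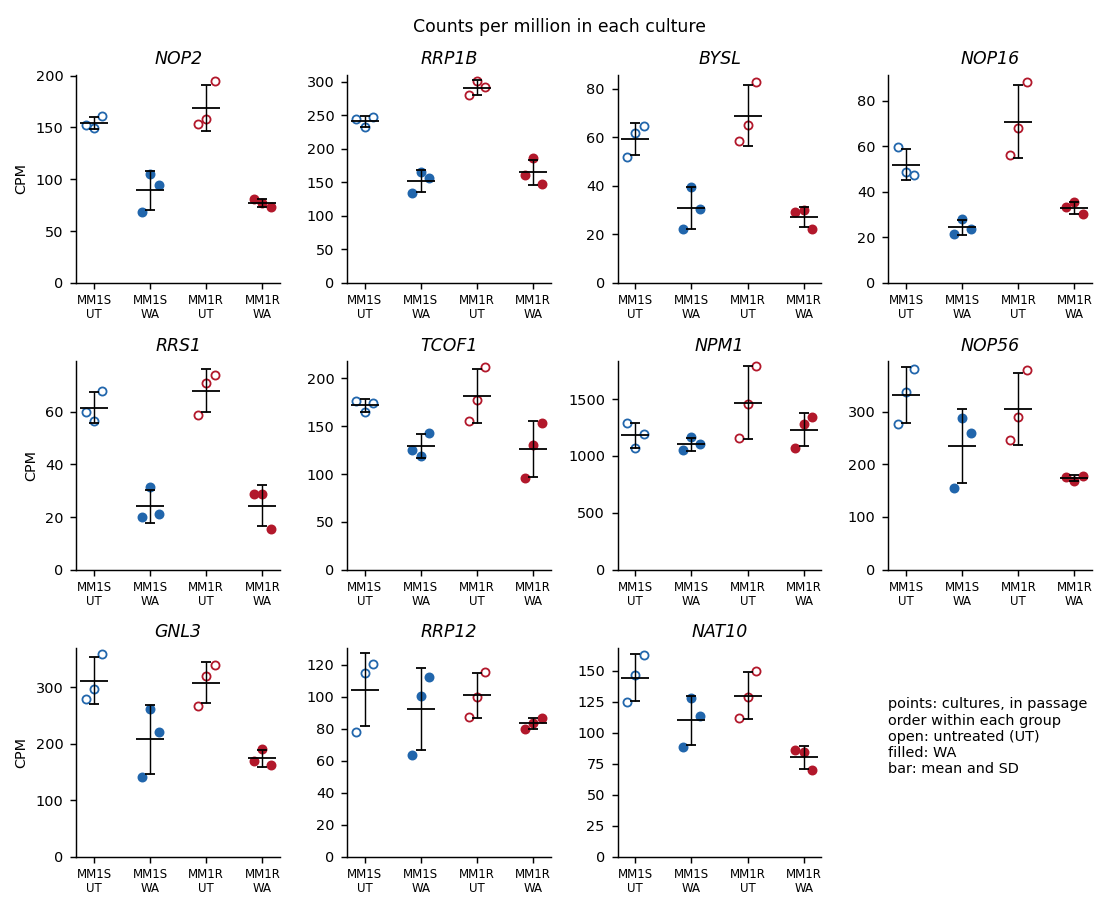
CPM in each culture (vertical axes start at 0) of the 11 genes for which values in every culture were fixed by rule, with open points for untreated and filled points for WA cultures, and the mean with SD of 3 cultures. For NOP2, RRP1B, BYSL, NOP16 and RRS1 all filled points lie below all open points of the same line, and for NPM1 the groups overlap in both lines.

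To describe the sequence around the starts of the listed genes, windows from 250 bases before to 50 bases after annotated starts were taken from RefSeq (GRCh38.p14). It held 55 windows for 47 of the 54 genes. The shares below cover all 47, whether or not a gene was tested or called with WA. Genes with stable calls were not compared with the others. RRP12, RRP1B, NOLC1, BOP1, RRS1, NOP58 and TCOF1 had no entry. Windows were searched on both strands for the E-box CACGTG (the letters that MYC and related factors bind), for CCGGAAG (ETS family), for CCAAT and for the heat shock element core TTCNNGAA. None of these letter strings contains another, but their matches can share letters. The E-box was present in 20 of 55 windows (36.4%), compared with 7.26% of all 35116 windows and 8.34% of those of protein-coding genes. CCGGAAG was present in 38.2% of the windows, against 10.3% of all and 12.8% of coding windows. CCAAT was found in 36.4% (34.6% of all) and the heat shock core in 3.64% (7.74% of all). The 19 tested genes with an E-box in a window had log2 fold changes with a median of -0.80 in MM1R (range -1.34 to -0.26) and 17 were lower, and the 25 tested genes with an entry but no E-box had -0.60 (range -1.16 to -0.18) and 20 were lower. In MM1S the medians were -0.56 and -0.48, and 6 of the 19 genes with and 10 of the 25 without an E-box were lower. The ranges overlapped widely, and a match of letters is no evidence of binding.

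Windows are shown for the 5 genes with an entry that were called in MM1R under all alternatives, from 5′ to 3′ of the gene with E-box and ETS letters in capitals. They are BYSL (chr6:41921249-41921548, plus strand), NOP2 (chr12:6568242-6568541, minus strand), UTP4 (chr16:69132399-69132698, plus strand), PES1 (chr22:30591861-30592160, minus strand) and NOP16 (chr5:176388549-176388848, minus strand).
BYSL: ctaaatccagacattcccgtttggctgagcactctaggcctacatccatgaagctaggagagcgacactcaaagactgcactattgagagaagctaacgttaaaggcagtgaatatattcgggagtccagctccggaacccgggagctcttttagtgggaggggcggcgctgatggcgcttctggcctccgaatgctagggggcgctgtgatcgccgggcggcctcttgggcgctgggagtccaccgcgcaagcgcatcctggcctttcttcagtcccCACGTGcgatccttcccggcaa
NOP2: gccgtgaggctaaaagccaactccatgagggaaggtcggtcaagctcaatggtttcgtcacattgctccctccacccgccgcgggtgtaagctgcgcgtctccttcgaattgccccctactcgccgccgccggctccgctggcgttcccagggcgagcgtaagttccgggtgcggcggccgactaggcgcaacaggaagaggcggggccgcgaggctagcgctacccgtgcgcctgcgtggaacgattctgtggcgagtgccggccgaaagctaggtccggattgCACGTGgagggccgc
UTP4: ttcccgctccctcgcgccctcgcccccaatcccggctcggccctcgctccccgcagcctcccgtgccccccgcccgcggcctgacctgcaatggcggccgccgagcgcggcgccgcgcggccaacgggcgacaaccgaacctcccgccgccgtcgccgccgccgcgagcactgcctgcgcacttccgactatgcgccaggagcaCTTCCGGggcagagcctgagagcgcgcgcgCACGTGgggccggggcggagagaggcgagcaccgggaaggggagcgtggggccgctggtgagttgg
PES1: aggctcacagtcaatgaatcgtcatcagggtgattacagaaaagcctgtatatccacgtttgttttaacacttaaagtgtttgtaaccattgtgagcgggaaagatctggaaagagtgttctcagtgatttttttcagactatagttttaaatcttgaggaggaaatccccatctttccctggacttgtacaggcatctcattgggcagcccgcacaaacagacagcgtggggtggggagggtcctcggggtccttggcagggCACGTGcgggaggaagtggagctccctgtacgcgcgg
NOP16: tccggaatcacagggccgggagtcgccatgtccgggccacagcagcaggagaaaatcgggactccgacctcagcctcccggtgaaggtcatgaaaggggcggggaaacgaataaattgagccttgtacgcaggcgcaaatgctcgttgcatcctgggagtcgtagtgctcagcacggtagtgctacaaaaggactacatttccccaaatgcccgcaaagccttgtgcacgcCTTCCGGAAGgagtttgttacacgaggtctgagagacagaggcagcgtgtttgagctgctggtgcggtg
The E-box begins at base 279 of the window in BYSL, 286 in NOP2, 264 in PES1 and 235 in UTP4, so that in BYSL, NOP2 and PES1 it lies just after the annotated start. UTP4 also holds CCGGAAG on the opposite strand from base 205. NOP16 has no E-box, but CCGGAAG lies on both strands in overlapping letters from bases 232 and 235. The same stretch holds TTCCGGAA, a match of the heat shock core, so that NOP16 was counted under both strings.

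The second comparison asked whether the lines differed in the untreated state. At an adjusted p under 0.05 by edgeR 0 of the 51 genes were lower and 0 were higher in MM1R than in MM1S, beside 5.5% lower and 6.44% higher of all tested genes. The log2 fold changes had a median of 0.00 and ran from -0.44 (UTP20) to 0.45 (NOP16). Over all 14085 tested genes 3649 had an unadjusted p under 0.05 by edgeR, and 5 of the 51 had one. They were NCL (-0.38) and UTP20, lower in MM1R, and NOP16, WDR74 (0.39) and RRP1B (0.27), higher in MM1R. DESeq2 called 2 of these, NCL lower and WDR74 higher, beside 7.08% lower and 7.74% higher of all tested genes. NCL had 860, 739 and 825 CPM in untreated MM1S and 546, 621 and 693 CPM in untreated MM1R, and WDR74 had 48.7, 53.2 and 51.8 CPM in MM1S and 58.5, 65.4 and 77.7 CPM in MM1R, with no overlap for either gene. With the limits set to an adjusted p under 0.01 and a log2 fold change over 1 in size, 0 of the 51 genes were called. Leaving out the WA culture of MM1S passage 16 gave 2 calls lower (NCL and UTP20), beside 6.73% of all tested genes. Leaving out the untreated MM1R culture of passage 4 gave 3 calls higher (NPM1, NOP16 and WDR74), beside 5.71%.

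The third comparison tested whether the effect of WA differed between the lines. The change was more negative in MM1R than in MM1S for 49 of 51 genes, with differences in log2 fold change between -0.39 and 0.10 and a median of -0.19, beside 54.8% of all tested genes and a median of -0.02. None of the 51 genes passed the interaction test of edgeR, where 0% of all tested genes were called, and neither edgeR nor DESeq2 gave any of the 51 an unadjusted p under 0.05. The smallest unadjusted p was 0.11, for NOP2, with a difference of -0.34. Over all 14085 tested genes only 97 had an unadjusted p under 0.05 by edgeR, so this test gave few small p for any genes. With the replicate block 0 of the 51 genes passed the interaction test in either direction, beside 0% of all tested genes. The higher number of calls in MM1R is therefore not shown to be a difference between the lines.

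Within the pairs of cultures of the same passage, the median log2 change of the 51 genes was -0.77, -0.20 and -0.53 for MM1S passages 16, 22 and 23 and -0.53, -0.60 and -0.88 for MM1R passages 4, 6 and 7. Of the 51 genes, 50, 45, 51, 50, 50 and 51 were lower with WA in these pairs, whereas between 47.0% and 50.2% of all tested genes were lower. In all 6 pairs 45 genes were lower, compared with 20% of all tested genes. The remaining genes were NPM1, GAR1, UTP20, PNO1 and RRP15, lower in 5 pairs, and NOP58, lower in 2. All 5 were higher with WA in the MM1S passage 22 pair, by 0.04 to 0.12. The pair of MM1S passage 22 had the smallest and that of MM1R passage 7 the largest median change. RRS1 changed by -0.84 in the former and -2.24 in the latter, and BYSL by -0.64 and -1.86. Differences between pairs were seen in each of the 6 roles, with medians from -0.13 to -0.41 in MM1S passage 22 and from -0.55 to -0.98 in MM1R passage 7.

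MYC had 579, 597 and 674 CPM in untreated MM1S and 228, 502 and 158 CPM with WA, and 627, 666 and 758 CPM in untreated MM1R and 418, 456 and 88.5 CPM with WA. Every WA culture lay below every untreated culture of its line, but the WA cultures spread widely. The log2 fold changes were -1.09 in MM1R (SE 0.47, edgeR adjusted p = 0.14) and -1.06 in MM1S (SE 0.47, adjusted p = 0.18), and neither passed the test. With passage as replicate block MYC was called lower in both lines, with adjusted p of 0.034 and 0.049. Its change within pairs was -1.34, -0.25 and -2.09 for MM1S passages 16, 22 and 23 and -0.58, -0.55 and -3.09 for MM1R passages 4, 6 and 7. The pairs with the smallest and the largest change of MYC were those with the smallest and the largest median of the 51 genes, but the order differed between them. MM1S passage 23 and MM1R passage 4 had the same median of -0.53, with MYC at -2.09 and -0.58. Whether MYC had a part in the lower levels was not tested.

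**Figure D3:**
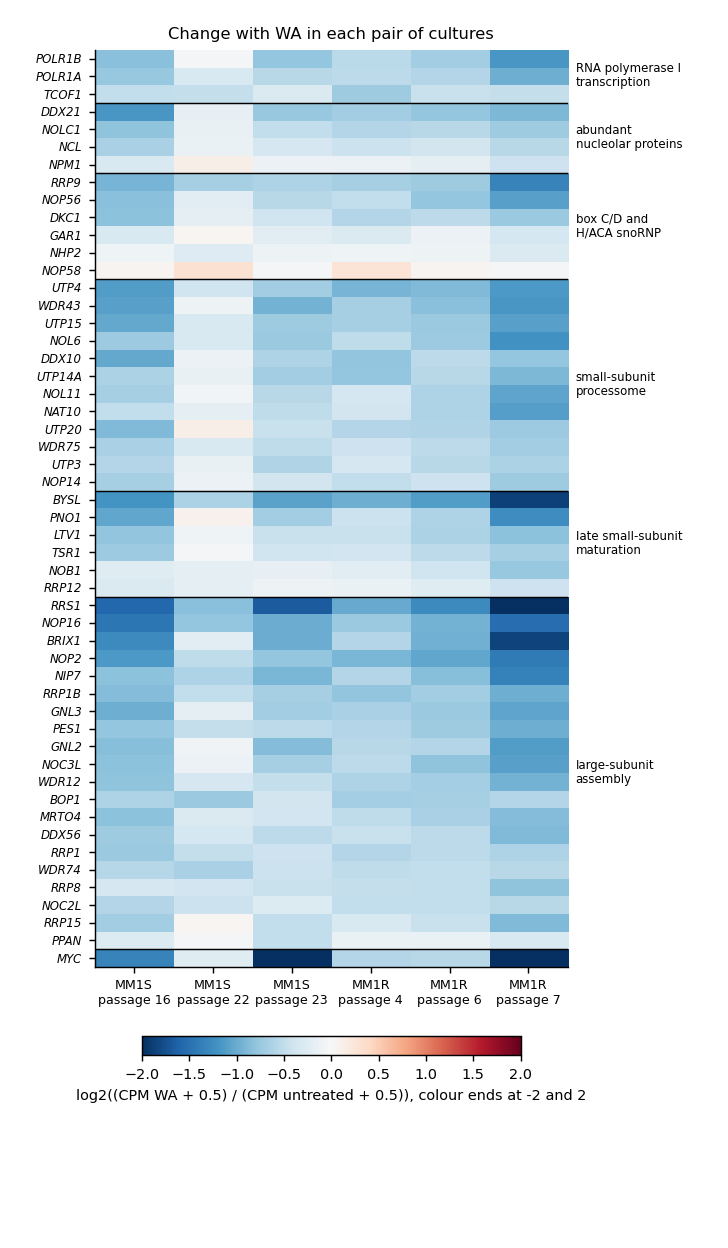
Log2 change with WA within each pair of cultures of the same passage (columns) for the 51 genes by role and for MYC (bottom), in CPM with a pseudocount of 0.5. Blue marks lower with WA. The MM1S passage 22 column is palest, with a median of -0.20, and the MM1R passage 7 column is darkest, with a median of -0.88.

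Other genes of the pathway were taken from a list of 92 further ribosome biogenesis factors, of which 85 were tested. This list was also chosen with earlier results of these data known. In MM1R 37 were lower and 1 was higher (edgeR adjusted p under 0.05), the median log2 change being -0.46, and in MM1S 22 were lower and 1 was higher, with a median of -0.35. The shares lower were 43.5% and 25.9%, beside 6.46% and 4.23% of all tested genes. With the replicate block 60 and 47 were lower, beside 14.4% and 11.7%, and 3 and 3 were higher, beside 14.7% and 12.5%. The smallest p in MM1R belonged to DHX37, the helicase that releases U3 from the processome (-1.08, adjusted p = 0.00012), PWP2, a processome subunit (-0.95, adjusted p = 0.00076), and IMP3, a U3 snoRNP protein (-1.04, adjusted p = 0.00080). DHX37 had 47.7, 50.1 and 56.7 CPM in untreated MM1R and 22.4, 25.2 and 25.6 CPM with WA. Without the block, the gene higher in MM1R was RIOK3, a kinase of the RIO family (0.33, adjusted p = 0.043, with 0.24, adjusted p = 0.15 in MM1S). The gene higher in MM1S without the block was EFL1, a GTPase of late large-subunit maturation (0.34, adjusted p = 0.040, with 0.29, adjusted p = 0.067 in MM1R). Of 79 cytosolic ribosomal protein genes, 73 were tested, and 0 were lower and 0 were higher with WA in either line by edgeR, with medians of -0.01 in MM1R and -0.02 in MM1S. An unadjusted p under 0.05 by edgeR was reached by 2 of the 73 in MM1R and 0 in MM1S, beside 3997 and 3503 of all 14085 tested genes. The most negative in MM1R were RPL17, with 23 to 56 reads per culture (-0.71, adjusted p = 0.094, and called lower with the replicate block at an adjusted p of 0.035), and RPS10 (-0.63, adjusted p = 0.17). Between the untreated lines, 8 of the 73 ribosomal protein genes were called higher in MM1R and 0 lower, beside 6.44% higher and 5.5% lower of all tested genes. Their log2 fold changes had a median of 0.32 and ran from 0.12 to 0.99. Of the 73, 0 were negative, beside 49.3% of all tested genes. An unadjusted p under 0.05 by edgeR was reached by 48, beside 3649 of all 14085 tested genes.

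**Figure D4:**
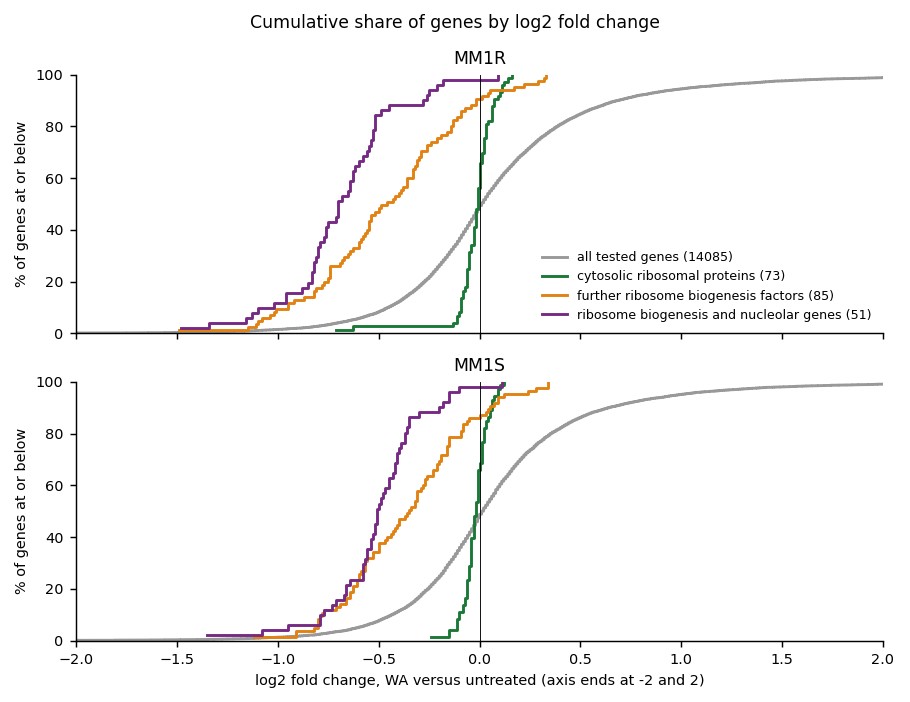
Cumulative share of genes (vertical axis, percent) at or below each log2 fold change with WA (horizontal axis) in MM1R and MM1S, for all tested genes, 73 ribosomal protein genes, 85 further factors and the 51 ribosome biogenesis and nucleolar genes. The medians of the 51 genes lie at -0.70 and -0.51, those of the further factors at -0.46 and -0.35, and those of the ribosomal protein genes at -0.01 and -0.02.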

How the data were processed

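Total RNA of 12 cultures was sequenced as paired-end reads. The authors checked reads with FastQC 0.11.5, mapped them with STAR 2.7.3a to hg19 and deposited raw counts per gene and culture, without normalization; the gene annotation and strand setting of the counting are not given in the sources used here. Their DESeq2-normalized table was not used. Counts were tested with edgeR 4.0.16 and limma 3.58.1 under R 4.3.3: filterByExpr (minimum count 10), TMM scaling, 1 quasi-likelihood fit of all 12 libraries with the 4 groups as terms, Benjamini-Hochberg adjustment over 14085 genes, and a threshold of 0.05. CPM use the TMM-scaled library sizes. Each SE is the size of the log2 fold change divided by the square root of the F statistic of the quasi-likelihood test. Alternatives were DESeq2 size factors, DESeq2 1.42.0, no filter, only the 6 libraries compared, the replicate block, and leaving out each library; leaving out both passage 7 cultures of MM1R or both passage 23 cultures of MM1S was added after seeing the data. Python 3.11.15 with matplotlib 3.10.9 drew the plots.

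The genes and all lists were chosen with earlier results of these data known. Values in every culture were given for up to 5 genes with the smallest p in each direction past the threshold in each of WA in MM1R, WA in MM1S and the untreated lines, for the gene with the highest mean CPM in each role, and for MYC. Up to 3 further factors in each direction in MM1R and up to 2 ribosomal proteins were named. NCL, WDR74, UTP4, NOP58 and DHX37 were shown by culture after their values were seen.

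Passage numbers come from the labels. Deviations from the group mean of untreated and WA cultures of the same passage correlated at 0.18 to 0.71 in the 6 pairs, all over 0.1, and the cultures were treated as paired in the replicate block fit (line and passage as factor). The chi-square per degree of freedom between replicates was 8.8 to 49.3, and no 2 libraries held the same counts. Gene positions, lengths and exon overlaps are from GENCODE on GRCh37. The fit was tested on simulated counts with 200 genes changed 3-fold in WA in MM1R, and edgeR recovered 90.5% of them among 13830 genes, with 7.2% of its calls false (DESeq2: 91.5% and 15.3%). Recovery of smaller changes was not simulated.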

Additional observations from a re-analysis of the deposited data

How the results depend on the processing

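The count of ribosome biogenesis genes lower with WA in MM1R was 42, beside 6.46% of all tested genes. It lay within 1.5 times of that with DESeq2 size factors (42, beside 6.61%), no filter (45, beside 4.23%) and DESeq2 (45, beside 8.73%). The same held for the 6 MM1R libraries alone (43, beside 7.55%) and the replicate block (46, beside 14.4%). Leaving out libraries gave 9 to 45, beside 1.54% to 8.02% of all tested genes, the lowest without both passage 7 cultures. In MM1S the count was 19, beside 4.23%. It was 37 with no filter (beside 3.19%), 29 with DESeq2 (6.71%) and 41 with the replicate block (11.7%). With DESeq2 size factors it was 20 (4.6%), and with the 6 MM1S libraries alone it fell to 14 (3.29%). Leaving out libraries gave 4 to 29, beside 0.682% to 4.94% of all tested genes, the lowest without both passage 23 cultures. Between the untreated lines, 1 gene lower and 1 higher were called with no filter (UTP20 and NOP16), beside 4.05% and 4.4% of all tested genes. DESeq2 called 1 and 1 (NCL and WDR74), beside 7.08% and 7.74%. Leaving out libraries gave 0 to 2 lower and 0 to 3 higher, beside 2.62% to 6.73% and 2.56% to 7.92% of all tested genes. The causes were not tested. The sign changed for 4 genes when a library was left out: NOP58 in MM1R (-0.03 to 0.20), NHP2 in MM1R (-0.36 to 0.06), GAR1 in MM1S (-0.26 to 0.01) and RRP12 in MM1S (-0.35 to 0.03), none of them called. For the WA effect of single genes in both lines, 1629 values under the alternatives kept direction and side of the threshold, 214 lost and 91 gained a call. FBL, NOC4L and RRN3 were at 0 to 13 reads, as were RPS9 and RPS25, which every cell uses, so these counts give no level of expression, and how such reads were assigned in the counting was not tested. With 3 cultures a group, a missed threshold does not show that values were equal.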

Other observations

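The product of RNA polymerase I itself is listed in the count table as 7 near-identical rows for the 45S precursor rRNA, and reads from such copies cannot be assigned to 1 of them, so the rows were summed after their values were seen. The summed reads were 53, 32 and 22 in untreated MM1S of passages 16, 22 and 23 and 88, 52 and 104 with WA. They were 56, 60 and 42 in untreated MM1R of passages 4, 6 and 7 and 135, 150 and 654 with WA. The sum was higher with WA in each of the 6 pairs, and the MM1R passage 7 culture with WA stood apart from the rest. MALAT1, a nuclear RNA, was also higher with WA in each pair, with 726 reads in untreated MM1R of passage 7 and 3219 with WA. The libraries were not designed to measure rRNA, and the way rRNA was removed is not given in the sources used here, so that these reads give no level of precursor rRNA in the cells.

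The WA culture of MM1R passage 7 had the lowest MYC level of the 12 cultures, at 88.5 CPM. It also had the lowest RRS1 level, at 15.3 CPM. In MM1S the lowest levels lay in different WA cultures. MYC was lowest in passage 23 (158 CPM) and RRS1 in passage 16 (19.8 CPM, beside 21.2 CPM in passage 23). The summed CPM of the tested ribosome biogenesis and nucleolar genes was 5531 in MM1R passage 7 with WA. It was lower with WA in MM1R passage 4 (5008) and MM1S passage 16 (4804). Whether the levels of MYC and RRS1 are linked was not tested. Among the plasma cell markers, IRF4, a transcription factor of plasma cells, was lower with WA in both lines (log2 fold change -0.96 in MM1R, edgeR adjusted p = 0.0032, and -0.73 in MM1S, adjusted p = 0.019), and SLAMF7, a surface receptor, was higher in both (0.40, adjusted p = 0.026, and 0.53, adjusted p = 0.0069).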
